A study of Mus musculus with 4 samples.

Results

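The 45 genes described here encode parts of the Wnt signalling pathway: 8 Wnt ligands, the ligand transporter Wls, 10 Frizzled receptors, 5 co-receptors, 2 R-spondins with 3 Lgr receptors, 5 secreted antagonists, 2 membrane ubiquitin ligases, 3 proteins of the destruction complex, 2 intracellular feedback inhibitors and 4 transcription effectors. They were listed by name with earlier results of these data known, and all 45 were found among the 52636 gene identifiers counted. The data are counts of RNA sequencing reads per gene in cells sorted by fluorescence from mouse kidney, with 2 libraries labelled control and 2 labelled Brg1-cKO. Brg1 is the protein of Smarca4, an ATPase that moves nucleosomes, and cKO is the usual abbreviation of conditional knockout. Strain, age, sex, the deleting allele and its promoter, and the marker used for sorting are not given in the sources used here. The labels tie no library to an animal, so the p-values reflect how far these 4 libraries scatter, and that scatter may be technical.

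Wnt ligands are lipid-modified proteins that Wls carries to the cell surface. A ligand that binds a Frizzled and Lrp5 or Lrp6 holds back the destruction complex, in which Axin and Apc mark beta-catenin (Ctnnb1) for breakdown, and beta-catenin then acts with TCF and LEF factors on target genes, among them Axin2. The receptors Ror1, Ror2 and Ryk serve branches that do not need beta-catenin. R-spondins bound to Lgr receptors remove Znrf3 and Rnf43, the ubiquitin ligases that take Frizzleds off the membrane. In the embryonic kidney, Wnt9b from the ureteric bud and Wnt4 in the induced mesenchyme drive nephron progenitors to form epithelium.

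Each library came from 3000 cells, with gene counts summing to 35411905 and 37999342 in the controls and 14645665 and 10922272 in Brg1-cKO. Smarca4, the targeted gene, was at 894 and 933 CPM (counts per 1000000 of the library size, which was scaled by the trimmed mean of M values, TMM) in the controls and at 757 and 688 CPM in Brg1-cKO. The nephron progenitor marker Six2 was at 241 and 236 CPM in the controls and at 233 and 126 CPM in Brg1-cKO. Of the 10 listed progenitor markers, 3 were higher and 2 lower without overlap, with sums of 1274 and 1254 CPM in the controls and 1380 and 1323 CPM in Brg1-cKO. Uniquely aligned reads that fell outside all counted genes made up 15.4% to 16.5% of unique reads in the controls and 49.5% to 57.2% in Brg1-cKO. All 10 listed podocyte markers were higher without overlap in Brg1-cKO, with summed levels of 3684 and 3344 CPM against 1114 and 1087 CPM. Of 15 markers of the renal stroma, 12 were lower and 1, Col1a2, was higher without overlap, with sums of 2503 and 2431 CPM against 3984 and 3932 CPM. Of 8 endothelial markers, 7 were lower without overlap, with sums of 238 and 157 CPM against 548 and 560 CPM. Of 8 immune cell markers, 7 were lower without overlap, with sums of 64.3 and 59.8 CPM against 147 and 150 CPM and C1qa at 0 counts in both Brg1-cKO libraries. The other marker, Adgre1, was at 6.34 and 9.16 CPM in the controls and at 0 and 29.8 CPM in Brg1-cKO. Over all genes tested, 34.5% were lower and 17.5% higher without overlap. In such bulk libraries, fewer cells of a type and less RNA per cell cannot be told apart.

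Brg1-cKO was set against control to see how transcripts of this pathway differ in sorted kidney cells where Brg1 was targeted. Fzd1 and Ror1 stood lower in Brg1-cKO, without overlap between the groups, with differences of -1.42 (SE 0.23) and -1.54 (SE 0.36) on the log2 scale. Lgr4 and Sfrp2 stood higher, by 0.63 (SE 0.13) and 0.65 (SE 0.13). The most abundant effector, Ctnnb1, differed by -0.08 (SE 0.09). None of the 45 genes was called: with edgeR's quasi-likelihood test, 0 of the 41 members that passed the filter on low counts had an adjusted p under 0.05, and 0% of all 18172 genes tested did. At an unadjusted p under 0.05 there were 6 members, 2 higher and 4 lower, or 14.6% of the 41, against 18.3% of all genes tested (5.44% higher and 12.9% lower). The share of members was thus no larger than that of all genes.

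DESeq2 called 3 members past an adjusted p of 0.05, namely Fzd1, Lgr4 and Sfrp2, and edgeR's likelihood ratio test called 4, namely Fzd1, Fzd9, Wnt6 and Sfrp2. Over all genes DESeq2 called 4.23% higher and 2.2% lower, and the likelihood ratio test called 3.03% higher and 10.6% lower. With limma-voom 0 members were called, where 0.121% of genes were higher and 0.495% lower. Leaving out Brg1-cKO replicate 1 or 2 gave 21 and 29 member calls, 51.2% and 70.7% of the 41, with the lone remaining library assumed to vary like the controls. In the same fits 55.5% and 60.6% of all genes tested were called.

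Among the 41 tested members, 20 had a fold change above 0 and 21 below, with a median log2 fold change of -0.01. Over all genes tested, 47% were above 0 and the median was -0.06. In 14 members both Brg1-cKO libraries were below both controls and in 6 both were above, 34.1% and 14.6% of the 41. These 20 members without overlap are 48.8% of the 41, against 52% of all genes tested (34.5% lower and 17.5% higher). With RLE (relative log expression) scaling they were 7 higher and 11 lower, and with total counts 6 and 15. In another 17 members the Brg1-cKO libraries lay on opposite sides of both controls, 41.5% against 36.8% of all genes. The Brg1-cKO libraries were more than 2-fold apart in 17 members, 41.5% against 49.8% of all genes, while the controls were more than 2-fold apart in 0 members, against 10.2%. Without Brg1-cKO replicate 2, 12 of 41 members had a fold change above 0, and the median log2 fold change of all genes tested fell to -0.58.

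**Figure D1:**
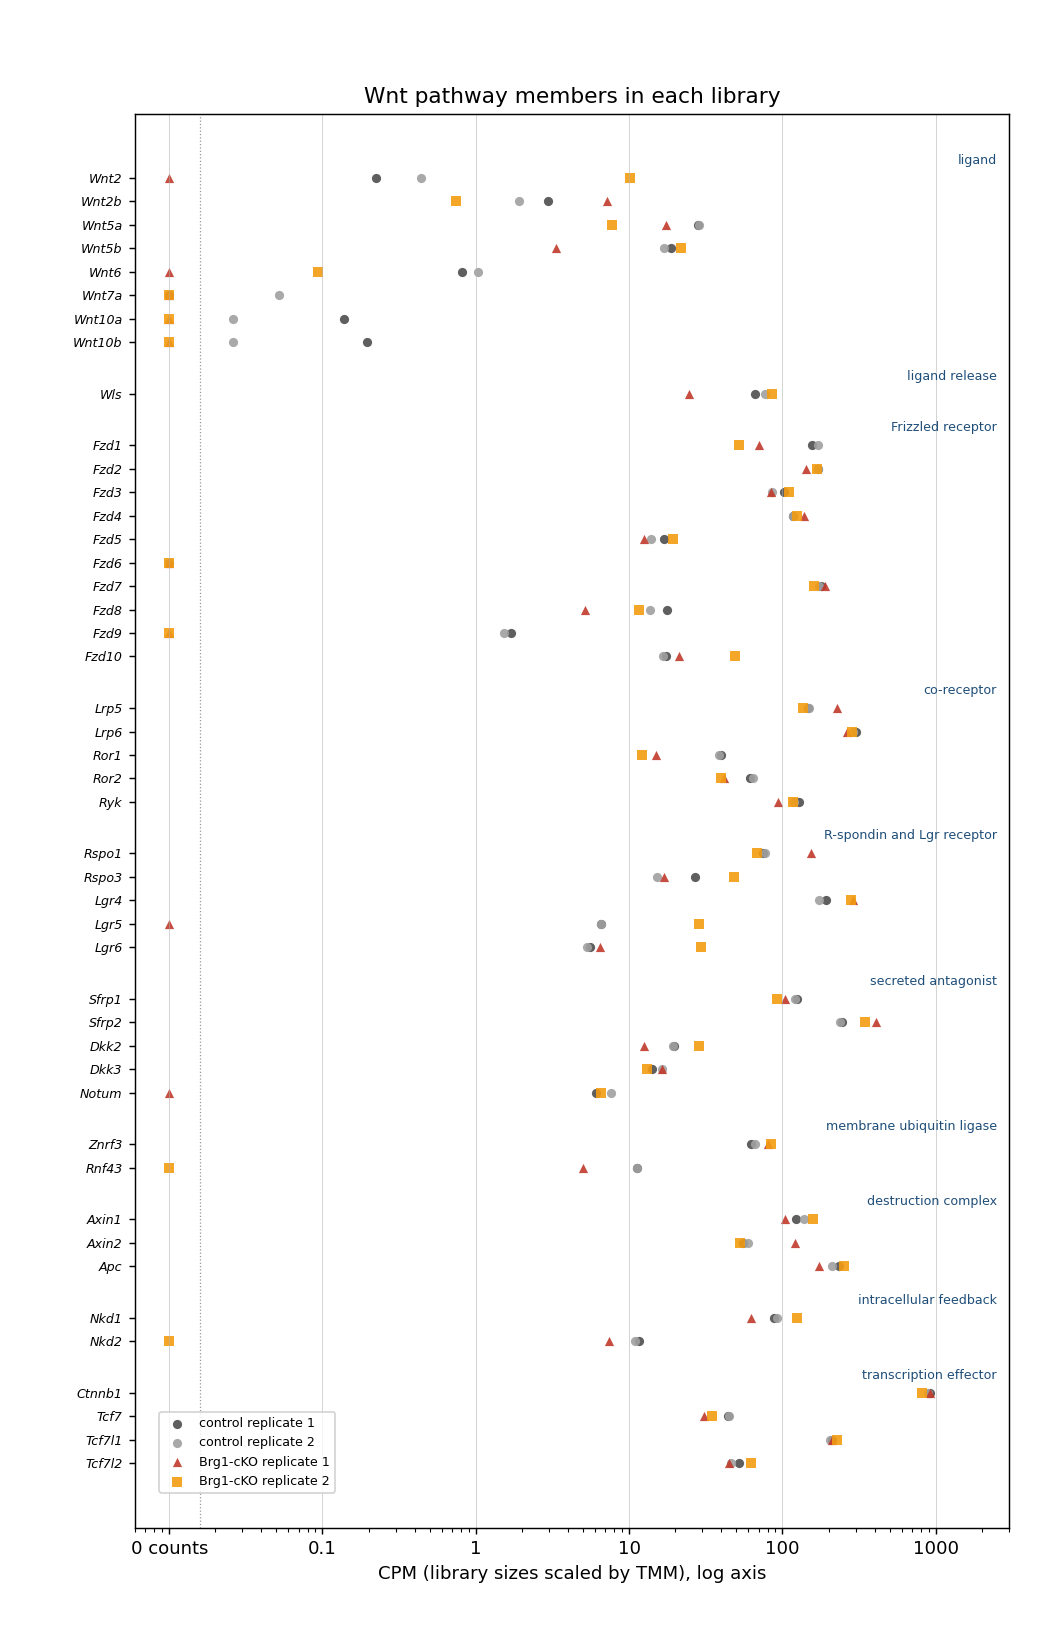
CPM of the 45 members in each library (log axis, genes at 0 counts placed left of the dotted line), grouped by role; circles are controls, the triangle and the square are Brg1-cKO replicates 1 and 2. Control circles lie close together in most rows, while the Brg1-cKO marks are often apart, as for Lgr5 (0 and 28.5 CPM); Fzd6 is at 0 counts in all 4 libraries, with the marks on top of each other.

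The upstream sequences of Fzd1, Ror1, Lgr4 and Sfrp2 are shown because these are the members with an unadjusted p under 0.05 and at least 10 CPM in a group, a choice made after their values were seen. Each is the 250 bases before the RefSeq start, 5′ to 3′ on the strand of the gene, on GRCm38.p6. They lie at chr5:4758217-4758466 on the minus strand for Fzd1, and on the plus strand at chr4:100095541-100095790 for Ror1, chr2:109917397-109917646 for Lgr4 and chr3:83766071-83766320 for Sfrp2. Capitals mark matches, on either strand, to CTTTGAT (the TCF/LEF motif), TATAAA (the TATA box) or CCAAT (the CCAAT box).
Fzd1: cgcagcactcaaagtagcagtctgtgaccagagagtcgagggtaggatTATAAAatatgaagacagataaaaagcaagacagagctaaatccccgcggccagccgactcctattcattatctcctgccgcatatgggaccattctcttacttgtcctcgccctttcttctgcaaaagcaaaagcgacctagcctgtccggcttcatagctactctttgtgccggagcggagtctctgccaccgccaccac
Ror1: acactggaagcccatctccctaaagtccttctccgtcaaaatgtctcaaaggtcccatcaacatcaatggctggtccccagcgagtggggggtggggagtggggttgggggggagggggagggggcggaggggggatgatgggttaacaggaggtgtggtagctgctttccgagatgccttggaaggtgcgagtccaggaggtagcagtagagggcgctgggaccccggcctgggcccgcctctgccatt
Lgr4: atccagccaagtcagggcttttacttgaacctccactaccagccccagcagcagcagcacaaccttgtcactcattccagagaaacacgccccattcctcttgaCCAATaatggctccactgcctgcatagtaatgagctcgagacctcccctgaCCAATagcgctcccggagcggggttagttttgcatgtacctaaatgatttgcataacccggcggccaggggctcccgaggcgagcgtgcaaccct
Sfrp2: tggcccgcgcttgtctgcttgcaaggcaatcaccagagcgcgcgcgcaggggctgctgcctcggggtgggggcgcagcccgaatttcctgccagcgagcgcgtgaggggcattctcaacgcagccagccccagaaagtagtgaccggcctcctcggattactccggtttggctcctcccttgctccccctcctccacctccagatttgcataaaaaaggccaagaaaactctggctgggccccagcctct

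None of these 4 windows holds the TCF/LEF letters, which occur in 3.21% of the 32851 windows of the same length in the RefSeq table and, among the 35 windows of the 29 members matched there, in 1, a start of Wnt5b. The Fzd1 window has a TATAAA match at position -202 from the start, a motif found in 12.4% of all windows. The Lgr4 window has 2 CCAAT matches, at positions -146 and -95, a motif found in 33.8% of all windows. The windows hold 12 CpG dinucleotides in Fzd1, 8 in Ror1, 10 in Lgr4 and 16 in Sfrp2, against a median of 6 over all windows. Such matches describe the letters alone.

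Among the 8 listed ligands, those other than Wnt5a and Wnt5b were scarce in the controls. Wnt5a, which acts mostly through branches without beta-catenin, was at 28.3 and 28.5 CPM in the controls and at 17.5 and 7.72 CPM in Brg1-cKO. Both Brg1-cKO libraries were below the controls, at a log2 fold change of -1.17 (SE 0.59, edgeR quasi-likelihood adjusted p = 0.425). Without Brg1-cKO replicate 1 that value was -1.91, and without replicate 2 it was -0.72. Wnt5b, its close relative and per kilobase of exon the most abundant listed ligand in control, was at 18.7 and 16.9 CPM in the controls and at 3.34 and 21.9 CPM in Brg1-cKO. One Brg1-cKO library was below and the other above the controls. Wnt2 was at 0.223 and 0.439 CPM in the controls and had 0 counts in Brg1-cKO replicate 1, which allows up to 0.209 CPM, but 10.1 CPM in replicate 2. Wnt2b was at 2.98 and 1.91 CPM in the controls and at 7.17 and 0.744 CPM in Brg1-cKO, the opposite order of the Brg1-cKO libraries.

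Wnt6 had 69 counts over the controls and 1 over Brg1-cKO, a control to Brg1-cKO ratio of 23.2 with an exact 95% counting interval from 4.03 to 930.0 that covers counting error only. Wnt7a, Wnt10a and Wnt10b did not pass the filter on low counts, with at most 0.195 CPM in any control and 0 counts in both Brg1-cKO libraries. Wls, the transporter that all these ligands need, was at 66.4 and 77.5 CPM in the controls and at 24.5 and 86.2 CPM in Brg1-cKO. Its Brg1-cKO libraries were 3.52-fold apart and lay on opposite sides of the controls. The summed level of the 8 ligands was 51.3 and 48.9 CPM in the controls against 28.0 and 40.6 CPM in Brg1-cKO, without overlap. This sum is not that of all Wnt ligands, as it leaves out those among the further genes described below. Of these, Wnt4 was at 205 and 201 CPM in the controls and at 468 and 369 CPM in Brg1-cKO. Wnt9b went the other way, to 0 counts in both Brg1-cKO libraries.

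Among the Frizzleds, the receptors that bind Wnt ligands, Fzd1 was at 157 and 171 CPM in the controls and at 70.5 and 52.3 CPM in Brg1-cKO. The groups were well apart, and the log2 fold change of -1.42 (SE 0.23) had an adjusted p of 0.166 with edgeR's quasi-likelihood test and, by the other tools, 0.000353 (DESeq2), 0.00151 (likelihood ratio test) and 0.0984 (limma-voom). Fzd1 (ENSMUSG00000044674) is a protein-coding gene on chromosome 5 from 4753839 to 4758035, minus strand (mm10, GENCODE M21). Beside it stand the lower stromal, endothelial and immune markers given above, whose part in this difference was not tested.

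Fzd2, Fzd7, Fzd4, Fzd3 and Fzd5 were close to control on average. Fzd2 was at 171 and 171 CPM in the controls and at 142 and 169 CPM in Brg1-cKO, and the gap between the groups closed when libraries were scaled by RLE. Fzd7 was at 179 and 175 CPM in the controls and at 191 and 161 CPM in Brg1-cKO, on both sides of the controls, with a log2 fold change of -0.01 (SE 0.15). Fzd4 was at 117 and 118 CPM in the controls and at 138 and 124 CPM in Brg1-cKO, slightly higher in both, with a log2 fold change of 0.16 (SE 0.16) within its error. Fzd3 and Fzd5 had log2 fold changes of 0.06 (SE 0.24) and 0.05 (SE 0.56), and their Brg1-cKO libraries lay on opposite sides of the controls.

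Fzd10, Fzd8 and Fzd9 were further from control. Fzd10 was at 17.3 and 16.6 CPM in the controls and at 21.1 and 48.8 CPM in Brg1-cKO, higher in both, at a log2 fold change of 1.04 (SE 0.55, edgeR quasi-likelihood adjusted p = 0.449). Without Brg1-cKO replicate 2 that value was 0.30, so its size came mostly from that library. Fzd8 was at 17.6 and 13.7 CPM in the controls and at 5.15 and 11.6 CPM in Brg1-cKO, lower in both. Its log2 fold change of -0.90 (SE 0.75) was -1.62 without Brg1-cKO replicate 2 and -0.45 without replicate 1. Fzd9 had 61 and 59 counts in the controls (1.70 and 1.52 CPM) and 0 in both Brg1-cKO libraries, so its level was at least 13.5-fold lower if 3 counts in the pooled Brg1-cKO libraries are taken as the limit of detection. That bound covers counting error only. Fzd6 had 0 counts in all 4 libraries, as did Gm26704, an antisense gene that overlaps its exons. This 0 does not show that Fzd6 was absent, since the rules by which reads were counted are not given in the sources used here, and it enters the shares of the Frizzleds as 0.

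Per kilobase of exon, Fzd1 gave 23.3% and 25.4% of the summed Frizzled level in the controls and 12.6% and 8.84% in Brg1-cKO. Fzd2 gave 29.1% and 29.2% in the controls and 28.9% and 32.7% in Brg1-cKO. Fzd7 gave 24.6% and 24.0% in the controls and 31.4% and 25.2% in Brg1-cKO. The 3 receptors thus had like shares in the controls, and in both Brg1-cKO libraries Fzd1 had the smallest share of them and also a smaller one than Fzd4. The summed Frizzled level was 780 and 766 CPM in the controls and 664 and 696 CPM in Brg1-cKO.

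**Figure D2:**
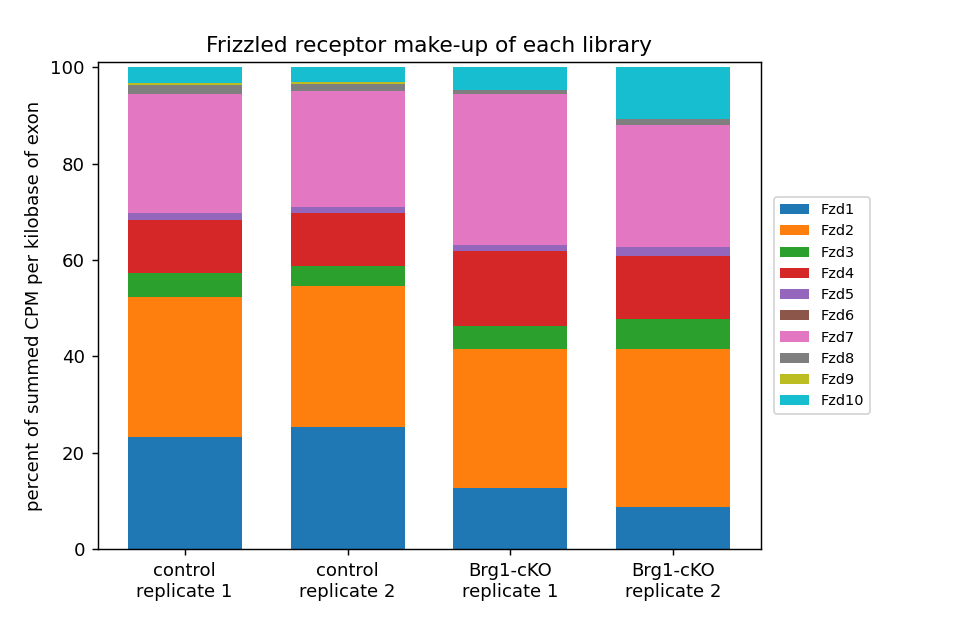
Share of each Frizzled gene in the summed CPM per kilobase of exon of all 10, by library, as stacked bars from 0 to 100%. The Fzd1 segment at the bottom covers 23.3% and 25.4% in the controls and 12.6% and 8.84% in Brg1-cKO.

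Of the 5 co-receptors, 4 were lower in both Brg1-cKO libraries, against 34.5% of all genes tested, but only Ror1 and Ror2 by a gap that remained under RLE scaling. Ror1, a receptor tyrosine kinase-like protein that binds Wnt5a, was at 39.7 and 38.8 CPM in the controls and at 14.9 and 12.1 CPM in Brg1-cKO. Its log2 fold change of -1.54 (SE 0.36) had an adjusted p of 0.166 with edgeR's quasi-likelihood test. By the other tools the adjusted p was 0.0534 (DESeq2), 0.0542 (likelihood ratio test) and 0.184 (limma-voom). Ror2, its paralog, was at 61.7 and 64.6 CPM in the controls and at 41.8 and 39.6 CPM in Brg1-cKO, a log2 fold change of -0.63 (SE 0.24, edgeR quasi-likelihood adjusted p = 0.282). For both genes the pairs of libraries agreed closely within each group. Ror1 (ENSMUSG00000035305) occupies chromosome 4, plus strand, from 100095791 to 100444765. Beside them, 12 of the 15 stromal markers were lower without overlap. Among these was Pdgfra, at 177 and 169 CPM in the controls against 141 and 64.9 CPM in Brg1-cKO. Ren1, also lower, had 32 and 47 counts in the controls and 0 in both Brg1-cKO libraries. Col1a2 was higher, at 589 and 582 CPM in the controls and 745 and 707 CPM in Brg1-cKO, and Tcf21 and Acta2 lay on both sides of the controls. The part of the stromal markers in the Ror values was not tested.

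Ryk, a further Wnt receptor and per kilobase the most abundant co-receptor in control, was at 128 and 118 CPM in the controls and at 93.8 and 117 CPM in Brg1-cKO. Lrp6, which passes the signal to the destruction complex, was at 303 and 288 CPM in the controls and at 265 and 286 CPM in Brg1-cKO. Both genes lay lower by margins that closed under RLE scaling, with log2 fold changes of -0.22 (SE 0.20) and -0.10 (SE 0.11). Lrp5, the partner of Lrp6, was at 146 and 150 CPM in the controls and at 228 and 135 CPM in Brg1-cKO, on both sides of the controls.

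All 5 genes of the R-spondin and Lgr arm had a fold change above 0 with TMM, RLE and total-count scaling, but only Lgr4 and Lgr6 were higher in both Brg1-cKO libraries, and 4 of 5 were above 0 with limma-voom and without Brg1-cKO replicate 1 and 3 of 5 without replicate 2. Lgr4, the receptor whose loss is known to impair kidney growth in mice, was at 193 and 174 CPM in the controls and at 288 and 281 CPM in Brg1-cKO. The groups were apart, and the log2 fold change of 0.63 (SE 0.13) had an adjusted p of 0.166 with edgeR's quasi-likelihood test and, by the other tools, 0.00556 (DESeq2), 0.0587 (likelihood ratio test) and 0.106 (limma-voom). Lgr4 (ENSMUSG00000050199) spans chromosome 2, plus strand, from 109917647 to 110014257 and overlaps no exon of another counted gene. Lgr6 was at 5.59 and 5.29 CPM in the controls and at 6.47 and 29.7 CPM in Brg1-cKO, so its log2 fold change of 1.73 (SE 0.99) rested on replicate 2 and was 0.23 without it and 2.42 without replicate 1.

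Lgr5, a stem cell marker in other tissues, was at 6.57 and 6.56 CPM in the controls. It had 0 counts in Brg1-cKO replicate 1 and 307 counts, or 28.5 CPM, in replicate 2. Lgr5 and Lgr6 were thus both high in the same library, Brg1-cKO replicate 2. Rspo1, a ligand of these receptors, was at 75.0 and 76.7 CPM in the controls and at 153 and 68.4 CPM in Brg1-cKO, high in replicate 1 only. Rspo3, another R-spondin, was at 26.9 and 15.3 CPM in the controls and at 16.9 and 48.5 CPM in Brg1-cKO, so the groups overlapped. The summed level of the 5 genes was 307 and 278 CPM in the controls and 464 and 456 CPM in Brg1-cKO, without overlap, with Lgr4 the largest part of it in every library. Beside these values, 5 of 8 early nephron markers were higher without overlap, with sums of 1934 and 1825 CPM against 1162 and 1167 CPM. In contrast, 2 of the 8, Dll1 and Fgf8, were lower without overlap. The largest term of these sums in every library was Ccnd1, which is also listed among the further pathway genes. The 10 podocyte markers were higher as well. The part of these markers in the Lgr4 difference was not tested.

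Of the secreted antagonists, Sfrp2 and Sfrp1 lay on opposite sides of control. Both encode soluble proteins with a Frizzled-like domain that can bind Wnt ligands. Sfrp2 was at 244 and 239 CPM in the controls and at 410 and 348 CPM in Brg1-cKO. Its log2 fold change of 0.65 (SE 0.13) had an adjusted p of 0.166 with edgeR's quasi-likelihood test and, by the other tools, 0.00307 (DESeq2), 0.0430 (likelihood ratio test) and 0.101 (limma-voom). Sfrp1 was at 125 and 121 CPM in the controls and at 104 and 92.3 CPM in Brg1-cKO, lower in both, at a log2 fold change of -0.32 (SE 0.17, edgeR quasi-likelihood adjusted p = 0.458). Sfrp2 (ENSMUSG00000027996) occupies chromosome 3, plus strand, from 83766321 to 83774316. It shares exon sequence with the antisense gene Gm26771, which had 39 and 34 counts in the controls and 0 in both Brg1-cKO libraries.

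Per kilobase of exon, Sfrp2 was second to Ctnnb1 among the 45 genes in control, at a mean of 112 against 175 CPM per kilobase. In Brg1-cKO it stood at 176 against 166 CPM per kilobase for Ctnnb1. By library, Sfrp2 was at 190 and 161 CPM per kilobase in Brg1-cKO and Ctnnb1 at 176 and 156, so within each of these libraries Sfrp2 was the higher, and in each control the lower. Dkk2 and Dkk3, of the Dickkopf family, had log2 fold changes of 0.08 (SE 0.59) and -0.04 (SE 0.54), with the Brg1-cKO libraries on opposite sides of control. Notum, an enzyme that removes the lipid from Wnt ligands, was at 6.07 and 7.59 CPM in the controls and had 0 counts in Brg1-cKO replicate 1 and 6.51 CPM in replicate 2.

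The membrane ubiquitin ligases Znrf3 and Rnf43, which act on the same receptors, lay on opposite sides of control. Znrf3 was at 62.3 and 66.1 CPM in the controls and at 80.1 and 84.5 CPM in Brg1-cKO, at a log2 fold change of 0.36 (SE 0.20, edgeR quasi-likelihood adjusted p = 0.467). Rnf43 was at 11.2 and 11.3 CPM in the controls and at 5.01 CPM in Brg1-cKO replicate 1, with 0 counts in replicate 2, which allows up to 0.279 CPM. The fitted log2 fold change of Rnf43 was -2.16 (SE 2.29), and without replicate 2 it was -1.19.

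The core of the canonical pathway stayed near control or differed between the Brg1-cKO libraries. Axin1, a scaffold of the destruction complex, was at 123 and 139 CPM in the controls and at 104 and 159 CPM in Brg1-cKO. Apc, a further scaffold, was at 235 and 212 CPM in the controls and at 173 and 254 CPM in Brg1-cKO. For both, replicate 1 was below and replicate 2 above the controls, with log2 fold changes of 0.00 (SE 0.27) and -0.07 (SE 0.23). Axin2, a feedback target of beta-catenin, went the other way, at 55.0 and 59.6 CPM in the controls and at 121 and 53.3 CPM in Brg1-cKO. Its antisense neighbour Gm11670, which shares exon sequence, had 0 and 25 counts in the controls and 102 and 0 in Brg1-cKO, so it too was highest in Brg1-cKO replicate 1.

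The feedback inhibitors Nkd1 and Nkd2 bind Dishevelled. Nkd1 was at 87.6 and 92.6 CPM in the controls and at 62.2 and 124 CPM in Brg1-cKO. Nkd2 was at 11.5 and 10.9 CPM in the controls and at 7.44 CPM in Brg1-cKO replicate 1, with 0 counts in replicate 2. Nkd1 was thus below the controls in replicate 1 and above them in replicate 2, and Nkd2 was below them in both.

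Of the effectors, Ctnnb1 was at 924 and 896 CPM in the controls and at 912 and 812 CPM in Brg1-cKO. The groups overlapped, and the log2 fold change was -0.08 (SE 0.09, edgeR quasi-likelihood adjusted p = 0.758). Tcf7l1, a TCF factor that mainly represses, was at 210 and 205 CPM in the controls and at 209 and 226 CPM in Brg1-cKO, also overlapping, with a log2 fold change of 0.07 (SE 0.13). Tcf7, a TCF factor that mainly activates, was at 44.3 and 44.6 CPM in the controls and at 30.9 and 34.6 CPM in Brg1-cKO, lower in both, at a log2 fold change of -0.44 (SE 0.28, edgeR quasi-likelihood adjusted p = 0.531). Tcf7l2 had a log2 fold change of 0.13 (SE 0.29) with the Brg1-cKO libraries on opposite sides of control.

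**Figure D3:**
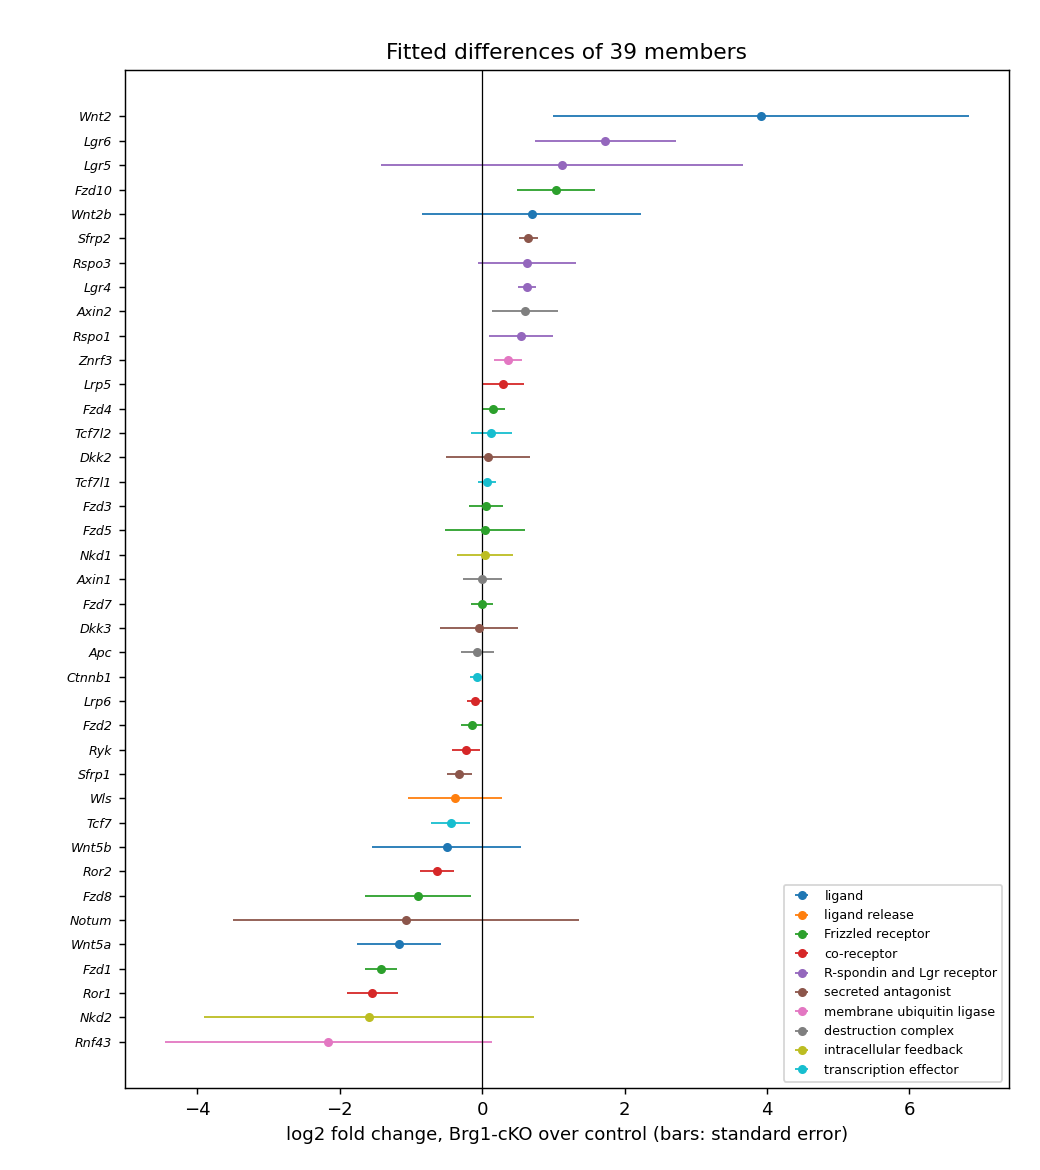
Log2 fold change of Brg1-cKO over control from edgeR for 39 of the 41 tested members (points), coloured by role. Bars are the standard error worked out from the F statistic of the test. Fzd9 and Wnt6, with 0 and 1 counts in Brg1-cKO, are left out. Fzd1 (-1.42) and Ror1 (-1.54) lie left of 0 and Sfrp2 (0.65) and Lgr4 (0.63) right of it with short bars, while Wnt2, Lgr5, Notum, Rnf43 and Nkd2 have the longest bars.

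The Brg1-cKO libraries were more than 2-fold apart in 0 of the 14 members at 100 CPM or more in control and in 17 of the 27 tested members under that level. Over all genes tested, at any level, they were more than 2-fold apart in 49.8%. How all genes divide by level, by the higher replicate or by turned sign is not given here. The 14 members had a median absolute log2 fold change of 0.15 between Brg1-cKO and control. Of the 41 tested members, 7 had 0 counts in at least 1 Brg1-cKO library (17.1%, against 25.4% of all genes tested), namely Wnt2, Wnt6, Fzd9, Lgr5, Notum, Rnf43 and Nkd2, all under 12 CPM in control. Members with at least 1 count numbered 43 and 44 in the controls and 36 and 38 in Brg1-cKO. Among the 17 members whose Brg1-cKO libraries lay on opposite sides of the controls, replicate 1 was the higher in 6 and replicate 2 in 11. Leaving out Brg1-cKO replicate 1 turned the sign of the fold change in 7 tested members, among them Wls and Axin2, and leaving out replicate 2 turned it in 12, among them Axin1 and Nkd1. The Brg1-cKO libraries had fewer counts on genes and more reads outside them, as given above, and the part of this in the spread was not tested.

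**Figure D4:**
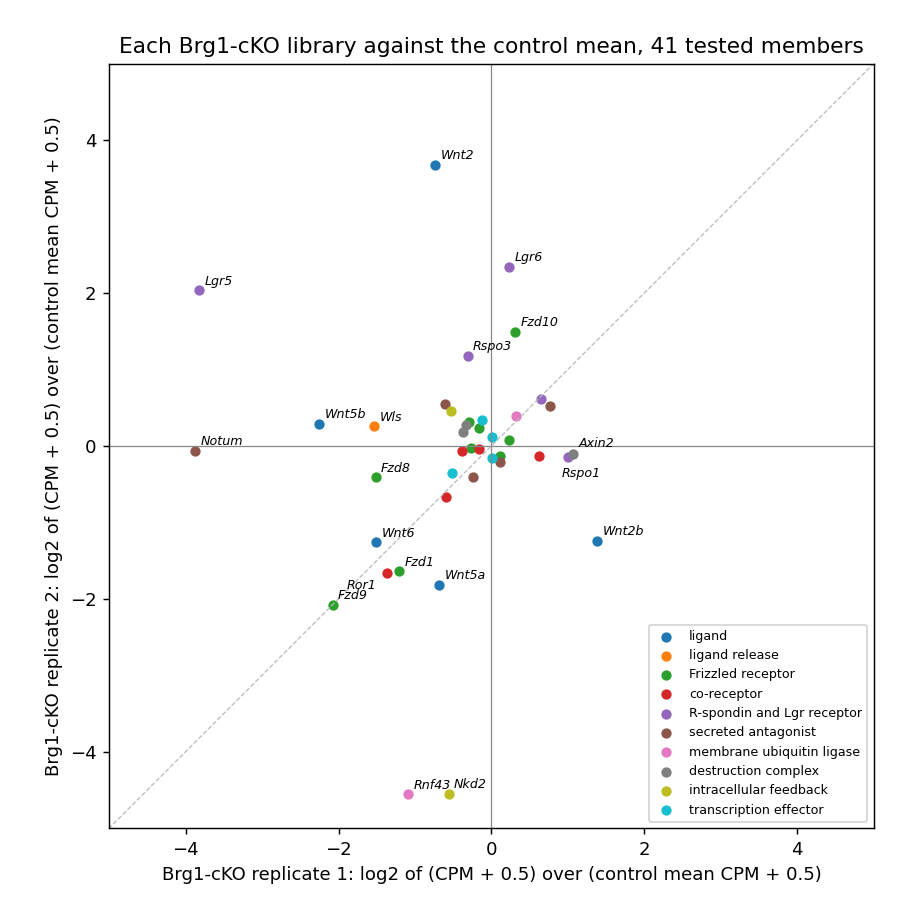
Each of the 41 tested members by its log2 ratio to the control mean, with 0.5 CPM added to both, in Brg1-cKO replicate 1 (x axis) and replicate 2 (y axis); the dashed line marks equal ratios, and both axes share the control mean. Fzd1 and Ror1 lie near the line below 0. Fzd9 is on the line by construction, as it had 0 counts in both Brg1-cKO libraries. Lgr5 and Wnt2 (upper left), Wnt2b (lower right), and Rnf43 and Nkd2 (bottom) lie far from the line.

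A further 63 genes of the pathway were listed, of which 55 passed the filter. With edgeR's quasi-likelihood test 0 of them had an adjusted p under 0.05, and 16 had an unadjusted p under 0.05, 7 higher and 9 lower (29.1%, against 18.3% of all genes tested). DESeq2 called 9 of 53, 5 higher and 4 lower (9.43% and 7.55%), against 4.23% and 2.2% of all genes. The likelihood ratio test called 8 of 55, 3 higher and 5 lower (5.45% and 9.09%), against 3.03% and 10.6% of all genes. With limma-voom 0 were higher and 3 lower (5.45%), against 0.121% and 0.495% of all genes. The 4 higher genes with the smallest p were Wnt4, Lef1, Ptk7 and Ccnd1, and the 4 lower ones were Prickle1, Nfatc1, Sfrp5 and Wnt9b. Part of the further genes were already known from these data to differ, so the shares are no independent result.

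Wnt4, the ligand of the induced mesenchyme, was at 205 and 201 CPM in the controls and at 468 and 369 CPM in Brg1-cKO. Lef1, the partner of beta-catenin that is also its target, was at 41.5 and 40.3 CPM in the controls and at 104 and 84.9 CPM in Brg1-cKO. Both were higher in both Brg1-cKO libraries, while Tcf7, in the same factor family as Lef1, was lower. Ptk7, a co-receptor of planar polarity, had a log2 fold change of 0.48 (SE 0.10), and the cell cycle gene Ccnd1 one of 0.57 (SE 0.13). Each of these 4 had an adjusted p of 0.166 with edgeR's quasi-likelihood test.

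Prickle1, a planar polarity protein, was at 50.8 and 58.5 CPM in the controls and at 7.10 and 7.53 CPM in Brg1-cKO, a log2 fold change of -2.90 (SE 0.34, edgeR quasi-likelihood adjusted p = 0.166). Both Brg1-cKO libraries were close to each other and far below the controls. Wnt9b, the inducing ligand of the ureteric bud, was at 6.68 and 9.40 CPM in the controls and had 0 counts throughout Brg1-cKO, at least 67.3-fold lower. Nfatc1 was at 14.8 and 10.4 CPM in the controls and had 0 counts in Brg1-cKO too, at least 106.0-fold lower, and Sfrp5 was at least 5.34-fold lower. These 3 bounds take 3 counts in the pooled Brg1-cKO libraries as the limit of detection and cover counting error only. Spread between libraries is not covered: Lgr5 had 0 counts in Brg1-cKO replicate 1 and 307 in replicate 2. Beside Wnt9b, the ureteric bud markers gave sums of 490 and 485 CPM in the controls and 505 and 299 CPM in Brg1-cKO, with 4 of 11 lower and 1 of 11 higher without overlap and Calb1 at 0 in both Brg1-cKO libraries, and their part in it was not tested.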

How the data were processed

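RNA was sequenced from sorted mouse kidney cells in 2 control and 2 Brg1-cKO libraries. Per the labels' protocols, RNA of 3000 cells gave each randomly primed, stranded library, read as single ends of 75 bp. The authors deposited whole-number counts of reads per Ensembl gene. Per the submitters' processing notes, the genome was mm10 and the tools included TopHat and DESeq2 (no versions named). What counted the reads, against which annotation and with which strand setting, is not given in the sources used here. Reads given to no gene (31.8% to 72.1% of a library) were left out of library sizes. If strand was ignored in counting, the 9 members that overlap an antisense gene (Axin2, Ctnnb1, Fzd5, Fzd6, Notum, Rspo3, Sfrp2, Tcf7l1 and Wnt5a) may have lost or gained reads.

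Symbols were matched for 52403 of 52636 identifiers, and positions and exon lengths were taken from GENCODE M21, on the same build. All genes were fitted with edgeR 4.0.16 in R 4.3.3 (TMM, default filter with a minimum count of 10, robust quasi-likelihood F test, group as the only term), with Benjamini-Hochberg adjustment over the 18172 genes tested. The functions were tested on simulated data with the same control-like spread in both groups. The Brg1-cKO libraries spread more widely, so that does not show how the fits perform on these data. Alternatives used DESeq2 1.42.0, limma 3.58.1 (voom), other scalings and filters, a replicate block and leaving out each library. An exact permutation test of 2 against 2 libraries cannot go below p = 0.333. A count of 0 allows up to 3 counts, for counting error only. CPM per kilobase divides CPM by the merged exon length. Each SE was worked out from the quasi-likelihood test, as the absolute log2 fold change over the square root of the F statistic.

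The members and lists were chosen with earlier results of these data known. Values in every library are given for members without overlap between groups and with at least 5 CPM in the higher group, for the most abundant of each role per kilobase, and for the 4 higher and 4 lower further pathway genes with the smallest p; other members described were added after their values were seen.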

Additional observations from a re-analysis of the deposited data

How the results depend on the processing

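The count of members past the adjusted threshold, 0 with edgeR's quasi-likelihood test, was also 0 with RLE or total-count scaling, without a filter, with 10 CPM in 2 libraries, with limma-voom and with library sizes free of mitochondrial, ribosomal protein and hemoglobin genes. It was 3 by DESeq2 and 4 by the likelihood ratio test, and ranged from 0 to 29 with a library left out. For the further pathway genes DESeq2 gave 9, the likelihood ratio test 8, limma-voom 3, and the range was 0 to 45 with a library left out. Over all genes DESeq2 gave 987, the likelihood ratio test 2471, limma-voom 112, and the range was 16 to 13262 with a library left out. The cause of these differences was not tested. A lone Brg1-cKO library was assumed to vary like the controls. Members with a fold change above 0 numbered 12 to 19 with a library left out, against 20 with all 4. In the same fits the median log2 fold change of all genes tested ranged from -0.58 to 0.006, against -0.06 with all 4. The fold change turned sign in 7 of 41 tested members without Brg1-cKO replicate 1 and in 12 without replicate 2.

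The labels do not say whether the replicate numbers pair the libraries. Over 18172 genes the difference between replicates 1 and 2 in control correlated with that in Brg1-cKO at r = -0.02. This cannot settle the pairing, because the wide spread between the Brg1-cKO libraries could hide a shared difference. With the replicate number as a block, 156 of all genes, 1 member (Fzd1, adjusted p = 0.0291) and 2 further genes were past the threshold. In the Brg1-cKO libraries, a count of 0 allows up to 0.209 and 0.279 CPM.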
